A study of Homo sapiens with 4 samples.

Results

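The Iroquois (IRX) genes encode homeobox transcription factors of the TALE class. In humans they lie in clusters of 3 on chromosomes 5 and 16. The members here are the EZH2 peaks with at least 1 base within 30 kb of the starts of IRX4, IRX2 and IRX1 on chromosome 5 and of IRX3, IRX5 and IRX6 on chromosome 16. These 6 windows of 60 kb held 19 of the 35016 peaks in the H3.1-K27M list and 19 of the 31077 peaks in the H3.1-WT list. All 6 genes had a peak in each list.

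EZH2 was mapped by CUT&RUN, where a nuclease is tethered by the antibody to the protein of interest inside permeabilised cells and the DNA it cuts free is sequenced. HEK293, an established line from human embryonic kidney, carried a lentiviral H3.1-K27M or H3.1-WT histone induced with doxycycline at 1 µg/ml after G418 selection. Each genotype had 1 EZH2 library and 1 library made with the anti-rabbit HRP antibody as background control, 4 libraries in all, and the authors deposited 1 list of broad peaks per genotype. The titles of the H3.1-K27M libraries and their list read H31, and the mutation is taken from the genotype label. The labels describe the added histone and no removal of the cells' own H3. With a single library for each combination, differences between H3.1-K27M and H3.1-WT are given as values without a test, and genotype and library cannot be told apart. The lists hold no read counts, so depth is unknown. The fold enrichment of a peak over background and its −log10 q, where a higher value is a stronger call, are the authors' own values.

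EZH2 is the enzyme of the Polycomb complex PRC2. It methylates histone H3 on lysine 27, a mark that keeps developmental regulators silent outside their lineages. The K27M histone carries methionine in place of that lysine. Iroquois factors pattern the heart, the neural tube, the limb and the nephron in vertebrates, and homeobox genes with CpG-rich promoters are classical Polycomb targets. The genes of each cluster correspond by position, and the RefSeq synonyms name IRX1 and IRX3 as IRXA1 and IRXB1, IRX2 and IRX5 as IRXA2 and IRXB2, and IRX4 and IRX6 as IRXA3 and IRXB3. No RNA was measured here, so the expression of the 6 genes in these cells is not given.

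The clusters differed in the length of DNA called as EZH2-bound. The 3 chromosome 5 windows had 16 peaks covering 26.7 kb in H3.1-K27M cells and 14 peaks covering 40.8 kb in H3.1-WT cells. The 3 chromosome 16 windows, of the same total size, had 3 peaks covering 2.23 kb in H3.1-K27M cells and 5 peaks covering 4.88 kb in H3.1-WT cells. The covered length on chromosome 5 was thus 11.96 times that on chromosome 16 in H3.1-K27M cells and 8.36 times in H3.1-WT cells. The ratio in H3.1-K27M cells depended on the setting and ran from 7.51 with windows of 10 kb to either side to 41.0 with lists cut to equal length. With equal lists the chromosome 16 length in H3.1-K27M cells was the 582 bases of the IRX3 peak alone. The same held at a −log10 q minimum of 2, where the ratio was 28.7. In H3.1-WT cells it varied less, from 6.56 with 100 kb to either side to 9.91 with peaks within 5000 bases joined. In each of the 6 windows fewer bases were covered in H3.1-K27M cells, with H3.1-K27M over H3.1-WT ratios from 0.238 at IRX3 to 0.858 at IRX6. For IRX6 the direction turned to 1.04 when the window was narrowed to 10 kb on either side of the start, whereas it was 0.385 with 100 kb to either side and 0 when peaks below a −log10 q of 2 were left out. For all 6 windows together 28.9 kb were covered in H3.1-K27M cells and 45.7 kb in H3.1-WT cells, a ratio of 0.632, from equal numbers of peaks. That ratio was 0.420 when peaks below a −log10 q of 2 were left out. This cut kept 24.5% of all H3.1-K27M peaks and 41.9% of all H3.1-WT peaks. It thus took more from the H3.1-K27M list as a whole, which also bears on the ratios of single genes below. A covered-length ratio over the autosomes after this cut was not computed.

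**Figure D1:**
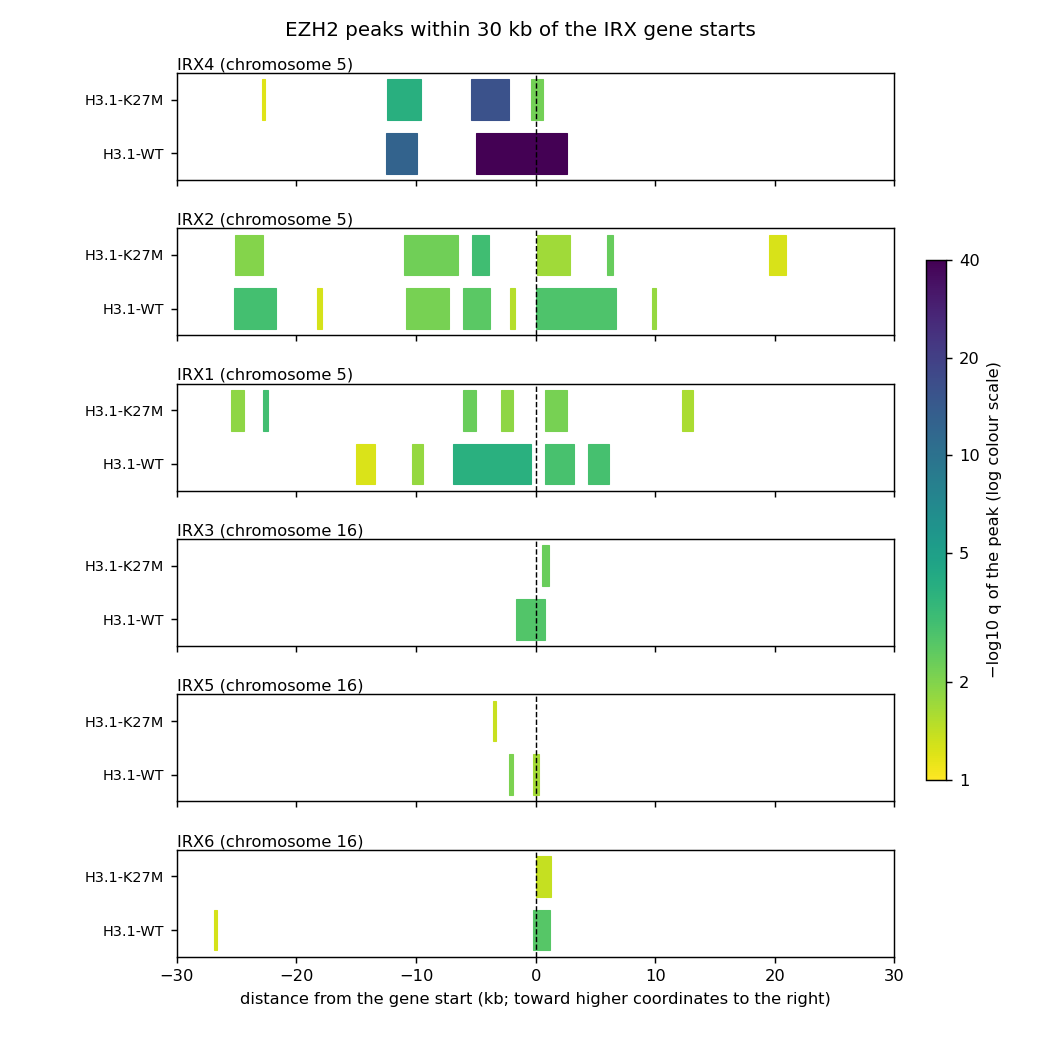
Each block is an EZH2 peak, drawn to scale by its distance in kb from the gene start (dashed line), with the H3.1-K27M list above the H3.1-WT list and colour giving −log10 q. The chromosome 5 genes carry 16 peaks in H3.1-K27M cells and 14 in H3.1-WT cells, and the chromosome 16 genes 3 and 5.

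As a background, the autosomes were divided into 48007 tiles of 60 kb. Of these 29.6% held a peak in H3.1-K27M cells and 38.4% in H3.1-WT cells, and 21.1% held peaks of both lists, as all 6 IRX windows did. Among tiles with peaks of both lists, 55.2% had fewer bases covered in H3.1-K27M cells, which is the background for the 6 of 6 IRX windows. The tiles include gene-poor sequence and assembly gaps, so they are a low background for gene starts. The mean tile had 1.20% of its bases covered in H3.1-K27M cells and 1.15% in H3.1-WT cells. The chromosome 5 windows had 14.8% and 22.7% covered in H3.1-K27M and H3.1-WT cells, and the chromosome 16 windows 1.24% and 2.71%.

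IRX4 is known as a ventricular gene of the developing heart, and it carried the strongest peaks of the family. The strongest H3.1-K27M peak there (hg19, chromosome 5, 1881612 to 1884759) spanned 3148 bases, with a fold enrichment of 8.35 and a −log10 q of 15.9. The strongest H3.1-WT peak (chromosome 5, 1881977 to 1889619) was 7643 bases wide and had a fold enrichment of 14.5 and a −log10 q of 40.1. These ranked 38 in the H3.1-K27M list and 32 in the H3.1-WT list, the top 0.109% and 0.103% of lists of unequal length. IRX4 is transcribed toward lower coordinates. The H3.1-WT peak ran without a break from 2.6 kb upstream to 5.0 kb downstream of the start, whereas the H3.1-K27M list had 2 separate peaks in that stretch. One was the strong peak, 2.2 to 5.4 kb downstream. The other (chromosome 5, 1886595 to 1887579) covered the start position, with 985 bases, a fold enrichment of 3.42 and a −log10 q of 2.18. It ended 0.4 kb downstream of that position, within the 0.5 kb to which starts are known, so it may miss the start. Of the 7643 bases of the H3.1-WT peak, 49.3% were covered in H3.1-K27M cells.

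A second site about 10 kb downstream of the IRX4 start was called in both lists. It had 2756 bases and a −log10 q of 3.93 in H3.1-K27M cells, against 2510 bases and 12.5 in H3.1-WT cells, with 2446 bases shared. Peaks with −log10 q ≥ 5 are called strong here. IRX4 had 1 strong peak in H3.1-K27M cells and 2 in H3.1-WT cells, and the other 5 genes had 0 in either list. Over strong peaks alone its covered length was 3148 bases in H3.1-K27M cells against 10153 in H3.1-WT cells, a ratio of 0.310, and over all peaks the ratio was 0.709. Over the whole lists 1.87% of H3.1-K27M peaks and 6.78% of H3.1-WT peaks were strong, and 1.31% and 4.18% of the autosomal tiles held a strong peak. The autosomes had 619 strong peaks in H3.1-K27M cells and 2024 in H3.1-WT cells, a ratio of 0.306 by number. The ratio of 0.310 at IRX4 is by length, so it is not a like comparison with that value. By number the ratio at IRX4 was 0.500, from 1 and 2 peaks. A ratio of strong peaks by length over the autosomes was not computed, so whether IRX4 stands apart is not known. A remaining peak of 313 bases, 22.6 kb downstream, was called in H3.1-K27M cells alone with a −log10 q of 1.20.

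IRX2, the middle gene of the chromosome 5 cluster, had the longest covered length in each list, without a strong peak. Its window had 6 peaks covering 12956 bases in H3.1-K27M cells and 7 peaks covering 17296 bases in H3.1-WT cells. Peak widths ran from 494 to 4503 bases in H3.1-K27M cells and from 325 to 6657 bases in H3.1-WT cells. The strongest H3.1-K27M peak (chromosome 5, 2746700 to 2748113) had a fold enrichment of 4.34 and a −log10 q of 3.1, and lay 3.9 to 5.3 kb downstream of the start on a gene also transcribed toward lower coordinates. The strongest H3.1-WT peak (chromosome 5, 2726763 to 2730349) had 4.19 and 3.02 and lay 21.7 to 25.2 kb downstream. The covered-length ratio of H3.1-K27M over H3.1-WT was 0.749, and 0.397 when peaks below a −log10 q of 2 were left out.

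Beside the IRX2 start, peaks of both lists extended upstream, toward the neighbouring noncoding gene IRX2-DT, which RefSeq places on the opposite strand. The H3.1-K27M peak began 103 bases from the start position and was 2843 bases wide. The H3.1-WT peak began 26 bases from it and was 6657 bases wide. Gene starts were known to the nearest kb, so these distances are within the 0.5 kb uncertainty of the start. All 2843 bases of the H3.1-K27M peak and a further 494-base peak upstream lay inside the H3.1-WT peak, of which 50.1% was covered.

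IRX1, which together with IRX2 is expressed in middle segments of the nephron in mouse and frog, had 6 peaks covering 6500 bases in H3.1-K27M cells and 5 peaks covering 13374 bases in H3.1-WT cells. The ratio of covered length, 0.486, was the lowest of the chromosome 5 genes. It was 0.315 when peaks below a −log10 q of 2 were left out and 0.783 with windows of 100 kb to either side. IRX1 is transcribed toward higher coordinates. The strongest H3.1-WT peak (chromosome 5, 3589052 to 3595638) was 6587 bases wide and had a fold enrichment of 4.12 and a −log10 q of 3.83. It ended 362 bases upstream of the start position, within the 0.5 kb uncertainty of the start. In H3.1-K27M cells this stretch held 2 peaks of 1169 and 981 bases that covered 32.6% of it. The strongest H3.1-K27M peak (chromosome 5, 3573210 to 3573589) was 380 bases wide and had a fold enrichment of 4.38 and a −log10 q of 3.07, lay 22.4 kb upstream and was not overlapped in H3.1-WT cells. From 0.8 kb downstream of the start, both lists had a peak, 1834 bases in H3.1-K27M cells and 2444 in H3.1-WT cells with 1813 shared. A further H3.1-WT peak 4.4 kb downstream had 1710 bases, a −log10 q of 2.97 and no H3.1-K27M counterpart.

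The promoters of these 3 genes were CpG-rich, the sequence class to which PRC2 is known to be recruited in vertebrates. Only these 3 are shown because no sequence was available for IRX3, IRX5 and IRX6, so CpG content was not compared between the clusters. The 250 bases before the outermost RefSeq start are given 5′ to 3′ on the gene's strand in GRCh38.p14, with each CpG dinucleotide (the letters CG) in capitals. IRX4 is at chr5:1887180-1887429 (minus strand), IRX2 at chr5:2751678-2751927 (minus strand) and IRX1 at chr5:3595582-3595831 (plus strand).
IRX4: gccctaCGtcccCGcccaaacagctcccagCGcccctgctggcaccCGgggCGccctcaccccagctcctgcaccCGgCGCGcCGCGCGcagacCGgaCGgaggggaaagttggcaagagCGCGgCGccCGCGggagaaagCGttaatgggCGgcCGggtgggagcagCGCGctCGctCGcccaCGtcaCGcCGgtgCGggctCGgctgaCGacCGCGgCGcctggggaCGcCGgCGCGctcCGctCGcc
IRX2: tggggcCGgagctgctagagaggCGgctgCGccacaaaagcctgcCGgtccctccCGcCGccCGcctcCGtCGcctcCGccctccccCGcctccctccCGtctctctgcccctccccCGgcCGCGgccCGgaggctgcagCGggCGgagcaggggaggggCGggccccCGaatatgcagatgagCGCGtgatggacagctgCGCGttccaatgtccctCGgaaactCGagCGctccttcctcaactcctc
IRX1: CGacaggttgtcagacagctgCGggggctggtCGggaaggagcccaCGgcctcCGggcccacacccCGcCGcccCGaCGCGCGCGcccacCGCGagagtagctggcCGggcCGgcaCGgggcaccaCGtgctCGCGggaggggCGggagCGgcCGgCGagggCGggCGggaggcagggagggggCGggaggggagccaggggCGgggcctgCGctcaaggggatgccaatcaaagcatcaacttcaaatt
The peaks are in hg19 and these sequences in GRCh38.p14, so which of the bases lie under a peak was not determined. IRX3, IRX5 and IRX6 have no entry in the sequence table.

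The IRX4 promoter held 40 CpG in 250 bases, IRX2 27 and IRX1 29. IRX4 had 3 RefSeq promoter entries and IRX2 and IRX1 1 each, and only the outermost start is reported. Among the 35116 RefSeq promoter windows of the same length the median was 11, and 93.9% held at least 1 CpG. Among the 22199 of protein-coding genes the median was 16. As many CpG as at IRX4 were found in 2.16% of all windows and 2.70% of protein-coding ones. For IRX2 these shares were 17.7% and 22.4%, and for IRX1 14.1% and 17.8%. Their G and C content was 77.6%, 72.8% and 75.2%, against a median of 58.0% over all windows and 62.0% over protein-coding ones. IRX4, with the strongest peaks, had the most CpG, a description of 3 promoters and not a relation.

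On chromosome 16, IRX3 had a single call in each list. IRX3 acts in ventral neural tube patterning and in the cardiac conduction system in mouse. The H3.1-K27M peak (chromosome 16, 54320541 to 54321122) was 582 bases wide and had a fold enrichment of 3.92 and a −log10 q of 2.31. The H3.1-WT peak (chromosome 16, 54318375 to 54320820) covered the start position and was 2446 bases wide, with 4.00 and 2.73. They shared 280 bases. The fold enrichments were alike while the H3.1-K27M call was shorter, which gave the lowest covered-length ratio of the family.

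IRX5, known for its part in the gradient of repolarisation across the ventricle wall in mouse, had the least coverage in both lists. The H3.1-K27M list had 1 peak (chromosome 16, 54961378 to 54961656), 279 bases wide and with a fold enrichment of 3.18 and a −log10 q of 1.36, at 3.3 kb from the start on the side of lower coordinates. The H3.1-WT list had a peak over the start position (chromosome 16, 54964751 to 54965309) of 559 bases with 3.40 and 1.65. Both edges of that peak lay within the 0.5 kb uncertainty of the start, so it may miss the start. The strongest H3.1-WT call at IRX5 was a peak of 284 bases (chromosome 16, 54962844 to 54963127) with 3.64 and 2.07. No base was covered in both lists. On that side of IRX5, RefSeq lists the noncoding gene CRNDE as the neighbour.

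IRX6, expressed in retinal bipolar cells in mouse, had a peak over its start position in both lists. The lower edge of each lay within the 0.5 kb uncertainty of the start, so either may miss the start. The peak was 1368 bases wide in H3.1-K27M cells (chromosome 16, 55357967 to 55359334), with a fold enrichment of 3.28 and a −log10 q of 1.39. In H3.1-WT cells it was 1320 bases wide (chromosome 16, 55357844 to 55359163), with 3.67 and 2.66. With 1197 bases in common, 67.8% of the bases covered in either list at IRX6 were covered in both, the highest share among the 6 genes. The H3.1-WT list had a second call there, 275 bases wide and 26.6 kb away, with a −log10 q of 1.26.

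**Figure D2:**
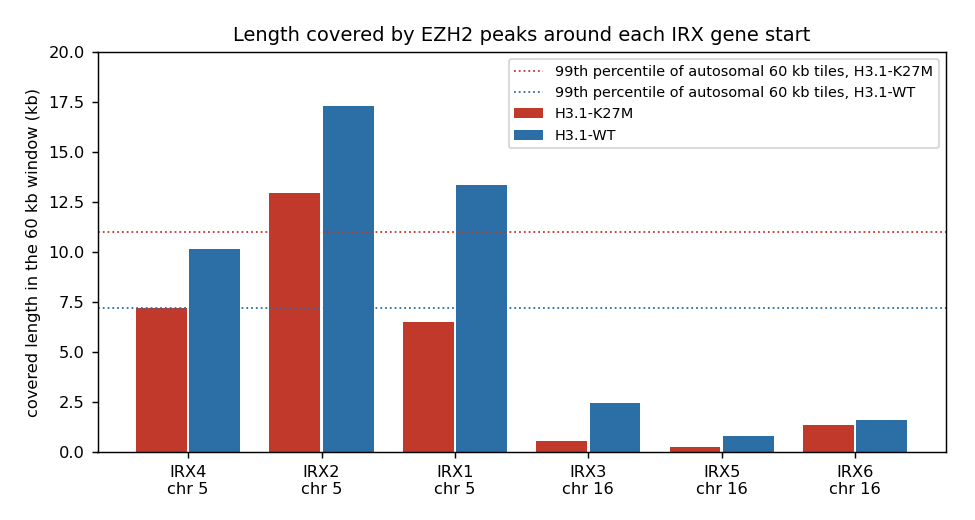
Bars give the length in kb covered by EZH2 peaks in the 60 kb window of each gene, H3.1-K27M left of H3.1-WT, 1 library each without error bars; dotted lines give the 99th percentile of autosomal 60 kb tiles of each list. The chromosome 5 bars run from 6500 to 12956 bases in H3.1-K27M cells and from 10153 to 17296 in H3.1-WT cells, and every chromosome 16 bar is below 3 kb.

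IRX2 had the longest and IRX5 the shortest covered length in each list. In H3.1-K27M cells the order ran IRX2, IRX4, IRX1, IRX6, IRX3, IRX5, and in H3.1-WT cells IRX2, IRX1, IRX4, IRX3, IRX6, IRX5. The 3 chromosome 5 genes came first in each. Whether neighbours in these orders differ beyond the spread of libraries cannot be judged from 1 library each. In the positional pairs, IRX1 had 11.2 times the covered length of IRX3 in H3.1-K27M cells and 5.47 times in H3.1-WT cells. For IRX2 over IRX5 the ratio was 46.4 and 20.5, and for IRX4 over IRX6 it was 5.26 and 6.37. The H3.1-K27M lengths at IRX5 and IRX6 were single weak peaks of 279 and 1368 bases, with −log10 q of 1.36 and 1.39. At a −log10 q minimum of 2 both lengths were 0, so these 2 ratios in H3.1-K27M cells could not be formed. The highest −log10 q on chromosome 5 and on chromosome 16 was 15.9 and 2.31 in H3.1-K27M cells, and 40.1 and 2.73 in H3.1-WT cells, with the chromosome 5 values at IRX4. The medians lay closer together. The median −log10 q was 2.16 on chromosome 5 and 1.39 on chromosome 16 in H3.1-K27M cells, and 2.69 and 2.07 in H3.1-WT cells. The median fold enrichment was 3.67 and 3.28 in H3.1-K27M cells, and 3.58 and 3.64 in H3.1-WT cells. Median width was 1290 and 582 bases in H3.1-K27M cells, and 2383 and 559 bases in H3.1-WT cells.

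Against the tiles, the chromosome 5 windows lay among the most covered and the chromosome 16 windows did not. As much coverage as at IRX2 was found in 0.710% of tiles in H3.1-K27M cells and 0.0708% in H3.1-WT cells. For IRX1 the shares were 2.57% and 0.160%, and for IRX4 2.18% and 0.387%. For IRX3 they were 22.0% and 8.35%, for IRX5 28.3% and 24.0%, and for IRX6 13.2% and 14.0%. Ranks in lists of different length do not measure a change in EZH2.

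The surroundings of the clusters differed in the same direction. IRX4, IRX2 and IRX1 lie in the light Giemsa band 5p15.33, and IRX3, IRX5 and IRX6 in 16q12.2, which stains darker. Over whole chromosomes, chromosome 5 had 23.4 kb covered per Mb in H3.1-K27M cells and 17.0 in H3.1-WT cells, and chromosome 16 had 13.1 and 11.6. The chromosome 5 windows exceeded their chromosome by 6.32 times in H3.1-K27M cells and 13.3 times in H3.1-WT cells. For the chromosome 16 windows these ratios were 0.948 and 2.35. The bands differed more than the chromosomes did. In H3.1-K27M and H3.1-WT cells 5p15.33 had 38.9 and 37.6 kb covered per Mb, against 148 and 227 in its IRX windows. For 16q12.2 the values were 3.82 and 9.62, against 12.4 and 27.1 in its IRX windows. In 5p15.33, 69 tiles did not touch an IRX window. In H3.1-WT cells 0 of them had as much coverage as the windows of IRX2 or IRX1 and 1 as much as that of IRX4. In H3.1-K27M cells the numbers were 1 for IRX2, 4 for IRX1 and 3 for IRX4. In 16q12.2, of 62 such tiles, 3 to 7 had as much coverage as a chromosome 16 window in H3.1-K27M cells and 4 to 11 in H3.1-WT cells.

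The clusters also differed between their genes. The chromosome 5 span from the IRX4 to the IRX1 window is 1769 kb long, and the chromosome 16 span from the IRX3 to the IRX6 window 1098 kb. Outside the windows the chromosome 5 span held 86 peaks in H3.1-K27M cells and 56 in H3.1-WT cells. The chromosome 16 span held 1 and 5. On chromosome 5 these peaks covered 65.7 kb per Mb in H3.1-K27M cells and 40.7 in H3.1-WT cells, so the order of the genotypes was opposite to that at the gene starts. On chromosome 16 the peaks between the windows covered 0.511 kb per Mb in H3.1-K27M cells and 3.88 in H3.1-WT cells.

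The excess of H3.1-K27M calls between the chromosome 5 genes was seen in both stretches. Between the IRX4 and IRX2 windows 76759 bases were covered in H3.1-K27M cells and 43994 in H3.1-WT cells, a ratio of 1.74. Between the IRX2 and IRX1 windows it was 27656 and 20717 bases, a ratio of 1.33. Both stretches together had a ratio of 1.61, or 1.17 when peaks below a −log10 q of 2 were left out. Over all of chromosome 5 the ratio was 1.38, and over the autosomes 1.04. The share of the span's covered length that lay in the 3 windows was 20.3% in H3.1-K27M cells and 38.7% in H3.1-WT cells. No peak between the windows reached a −log10 q above 3.95 in H3.1-K27M cells or 6.68 in H3.1-WT cells. Between the IRX3 and IRX5 windows, a stretch of 585 kb, the H3.1-K27M list had 0 peaks and the H3.1-WT list 2.

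**Figure D3:**
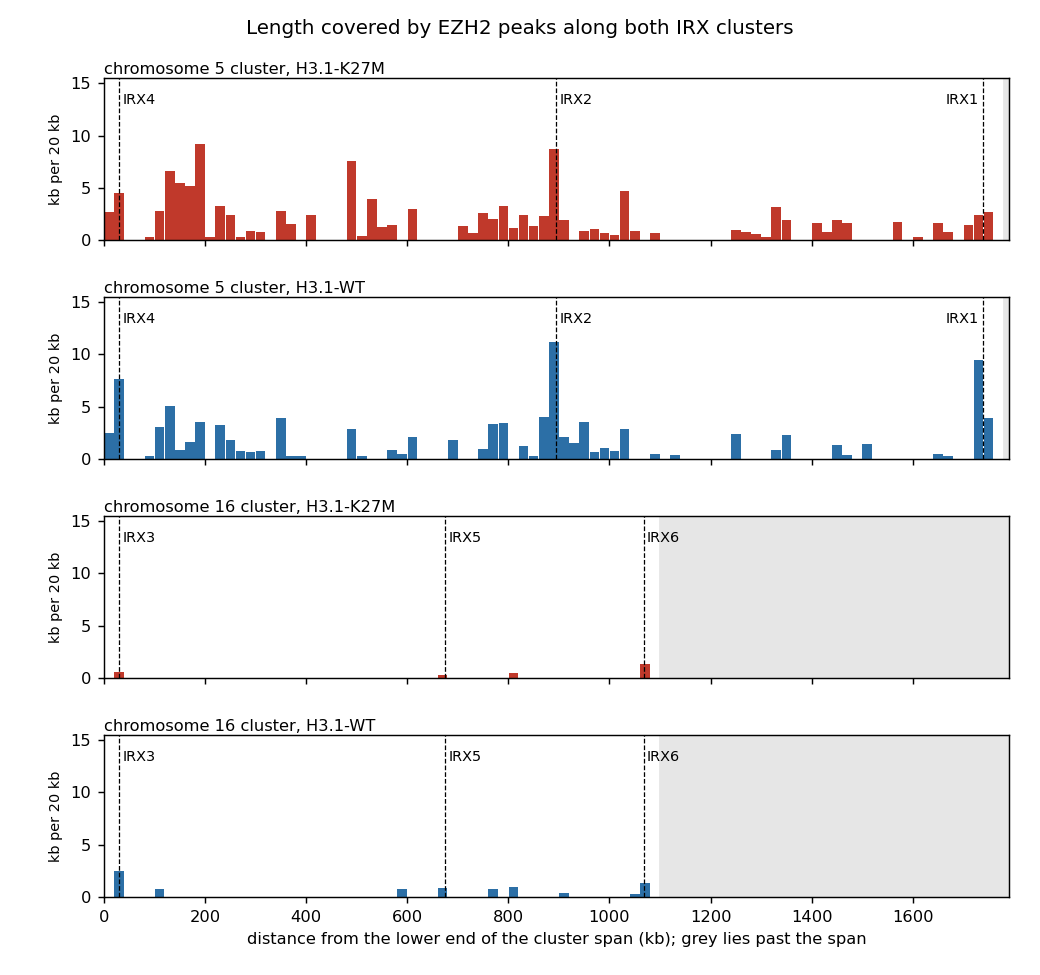
Bars give the kb covered by EZH2 peaks in successive 20 kb bins along each cluster, by distance in kb from the lower end of its span, with H3.1-K27M over H3.1-WT for each cluster and dashed lines at the gene starts. The chromosome 5 span carries 102 peaks in H3.1-K27M cells and 70 in H3.1-WT cells, the chromosome 16 span 4 and 10.

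In the 20 kb bins along the chromosome 5 span, the bin with the longest H3.1-K27M coverage began 180 kb from the lower end, outside the windows, with 9159 bases in H3.1-K27M cells and 3523 in H3.1-WT cells. The bin with the longest H3.1-WT coverage held the IRX2 start, with 8760 bases in H3.1-K27M cells and 11202 in H3.1-WT cells. Inside the windows, the 5 kb bins with the highest coverage lay within 10 kb of the gene starts. In the 5 kb below the 3 chromosome 5 starts, 35.3% of bases were covered in H3.1-K27M cells and 74.8% in H3.1-WT cells, and in the 5 kb above them 35.0% and 70.7%. From 20 to 25 kb below the starts the values were 23.2% and 22.3%. Of all bases covered in the chromosome 5 windows, 39.6% lay within 5 kb of a start in H3.1-K27M cells and 53.5% in H3.1-WT cells. In the chromosome 16 windows it was 100% and 94.4%. The genes are transcribed in different directions, so below and above refer to coordinates and not to upstream and downstream.

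**Figure D4:**
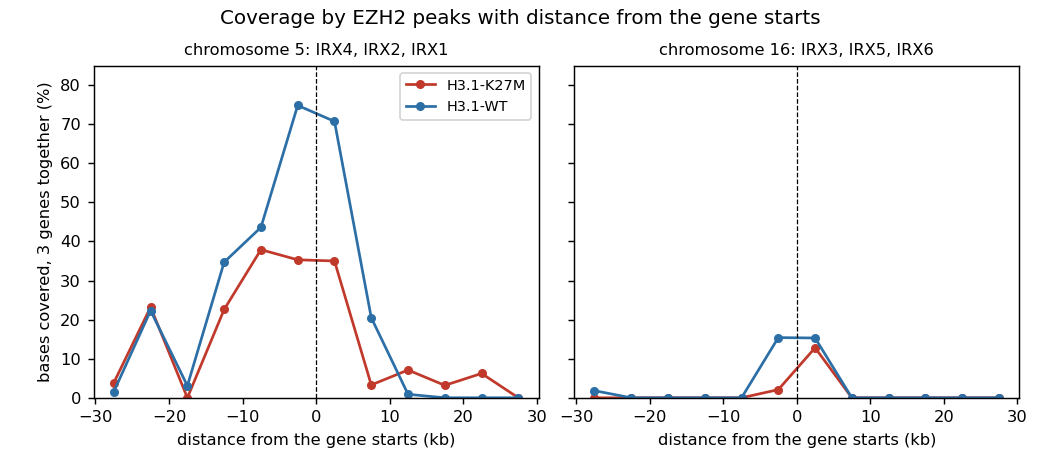
Points give the percentage of bases covered by EZH2 peaks in 5 kb bins by distance in kb from the gene starts, over the 3 genes of each cluster together, for H3.1-K27M and H3.1-WT. Around the chromosome 5 starts the H3.1-K27M line reaches 37.9% and the H3.1-WT line 74.8%, and around the chromosome 16 starts neither exceeds 15.4%.

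Most H3.1-K27M peaks near the IRX genes were also called in H3.1-WT cells. Of the 19 H3.1-K27M peaks 13 were overlapped by at least 1 base in H3.1-WT cells (68.4%, 95% Wilson interval 46.0% to 84.6%), and 31.6% of all H3.1-K27M peaks were. Of the 19 H3.1-WT peaks 10 were overlapped in H3.1-K27M cells (52.6%, 31.7% to 72.7%), and 36.0% of all H3.1-WT peaks were, a value inside that interval. When a reciprocal overlap of 50% was required, both shares were 31.6%, and over the whole lists they were 12.9% for H3.1-K27M peaks and 14.5% for H3.1-WT peaks. These intervals reflect counting error alone and assume independent peaks, which neighbouring peaks are not. The median IRX peak was 1169 bases wide in H3.1-K27M cells and 1710 in H3.1-WT cells, against 825 and 778 over the whole lists. Wider peaks meet a 1-base overlap more easily, so the whole-list shares are not a like comparison. By cluster, 11 of 16 H3.1-K27M peaks and 8 of 14 H3.1-WT peaks were overlapped on chromosome 5, and 2 of 3 and 2 of 5 on chromosome 16. By length, 77.1% of the bases covered in H3.1-K27M cells were also covered in H3.1-WT cells, and 48.7% of those covered in H3.1-WT cells were also covered in H3.1-K27M cells. A −log10 q of at least 2 was reached by 10 of the 19 H3.1-K27M peaks (24.5% of that whole list) and by 12 of the 19 H3.1-WT peaks (41.9%). At IRX5 and IRX6 0 H3.1-K27M peaks reached it.

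The farthest peaks inside the 30 kb limit lay 24.4 kb from a start in H3.1-K27M cells (IRX1, −log10 q of 1.86) and 26.6 kb in H3.1-WT cells (IRX6, 1.26). The nearest peaks outside it lay 39.7 kb (IRX2, 1.78) and 36.7 kb (IRX2, 1.39) away. At IRX3 the next H3.1-K27M peak was 465 kb away, and at IRX4 it was 68.3 kb away.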

How the data were processed

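The deposited data are 2 lists of broad EZH2 peaks, 1 for each genotype. Peak names give 1 EZH2 and 1 HRP library per list, so calling was per sample. The submitters' processing notes list the build hg19 and the tools MACS2, deepTools, Picard, cutadapt and Bowtie2 2.3.5.1, with no roles or parameters. The deposited fold enrichment of a peak is a linear ratio over the background that the authors' caller estimated. The authors' caller also gave the deposited −log10 q values, the lowest being 1.00 in the H3.1-K27M list and 1.01 in the H3.1-WT list. Peak length and strength depend on library depth and scaling, which are not given in the sources used here.

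Gene starts were taken to the nearest kb in hg19, so a peak over a start is a peak over that rounded position. A peak was a member when at least 1 of its bases lay within 30 kb of a start, and covered length is the number of window bases under peaks. Every member gene is named, with its strongest peak and, where a list had one, the peak over its start. Strands and sequences came from RefSeq tables on GRCh38.p14, and no coordinates were converted. No hg19 annotation was used, so exons, introns and other homeobox genes of the TALE class were not analysed here. Bands came from circlize 0.4.16 and chromosome lengths from GenomeInfoDb 1.38.1, and 0 peaks ended past an hg19 chromosome end. Shares have 95% Wilson intervals. The computation of overlap and covered length was checked on simulated lists with known answers, which is no test of the peaks. The members and the settings were chosen with earlier results of these data known. Software was R 4.3.3, bedtools 2.31.1, Python 3.11.15, matplotlib 3.10.9, scipy 1.17.1, pandas 2.3.3 and numpy 2.4.6.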

Additional observations from a re-analysis of the deposited data

How the results depend on the processing

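The alternatives were −log10 q minimums of 2 and 5, windows of 10 and 100 kb to either side, midpoint assignment, peaks within 5000 bases joined, lists of 15538 peaks each, a reciprocal overlap of 50%, and, added after seeing the data, starts moved by 0.5 kb. Midpoint assignment and moved starts changed no value. The ratio of covered length over the 6 genes, 0.632, stayed below 1 and was 0.420 at a minimum of 2 and 0.310 at 5. Of the whole lists, a minimum of 2 kept 24.5% of H3.1-K27M peaks and 41.9% of H3.1-WT peaks. A minimum of 5 kept 1.87% and 6.78%. The ratio of peak numbers was 0.500 at 5, from 1 and 2 peaks, and over the autosomes it was 0.306 at 5. The chromosome 5 over chromosome 16 ratio in H3.1-K27M cells, 11.96, was 28.7 at a minimum of 2, 7.51 at 10 kb, 22.3 at 100 kb, 21.2 with peaks joined and 41.0 with equal lists. At 5 it could not be computed, since the chromosome 16 windows had no such peak, and the same held in H3.1-WT cells. Under the other settings the ratio in H3.1-WT cells, 8.36, ran from 6.56 at 100 kb to 9.91 with peaks joined. Among H3.1-K27M peaks the overlapped share was 90.0% at 2 (42.9% over the whole list), 100% at 5 (1 peak, 81.3%), 92.3% at 10 kb, 85.7% with equal lists (34.2%) and 31.6% with reciprocal overlap (12.9%). Among H3.1-WT peaks the overlapped share was 75.0% with peaks joined (38.0%), 75.0% with equal lists (34.1%) and 31.6% with reciprocal overlap (14.5%). The IRX6 ratio reversed to 1.04 at 10 kb, since the H3.1-WT peak 26.6 kb away then fell outside. The ratio between the chromosome 5 windows, 1.61, ran from 1.17 to 1.74 under 3 alternatives added after seeing the data, and at a minimum of 5 no H3.1-K27M base was left there. Ratios of IRX5 at 100 kb and with peaks joined were 0.119 and 0.113, that of IRX6 at 100 kb was 0.385, and both were 0 at a minimum of 2 and with equal lists. The cause of the other changes was not tested. No paired analysis was possible because there is a single library in each group. All comparisons of the lists are limited by the unknown depth.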

Other observations

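Between the windows, the single strongest call of each list in each cluster was at a site called in both lists. The sites were chosen here after their values were seen. On chromosome 5 the strongest lay 148 kb above the IRX4 start, from 2035377 to 2039357 in H3.1-K27M cells (fold enrichment 4.46, −log10 q 3.95) and from 2035335 to 2040206 in H3.1-WT cells (5.42 and 6.68), and all 3981 bases of the H3.1-K27M peak were shared. A site 397 kb below the IRX1 start had a −log10 q of 3.36 in H3.1-K27M cells and 6.03 in H3.1-WT cells, with 2867 bases shared. A stronger H3.1-K27M peak, 82.8 kb from the IRX1 start with a −log10 q of 3.77, shared 496 of its 1596 bases. On chromosome 16 the single H3.1-K27M peak between the windows, from 55090754 to 55091222 above IRX5, had a −log10 q of 2.12. It lay inside an H3.1-WT peak from 55090415 to 55091347 with a −log10 q of 5.17, the sole strong peak of either list in the chromosome 16 span. The next strongest H3.1-WT peaks between those windows, with −log10 q of 3.62 and 2.39, were not overlapped in H3.1-K27M cells.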
